A study of Mus musculus with 16 samples.

Results

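The insulin-like growth factor (IGF) system of the mouse ventricle was described through 10 genes chosen by name: the ligands Igf1 and Igf2, the receptors Igf1r and Igf2r, and the binding proteins Igfbp2, Igfbp3, Igfbp4, Igfbp5, Igfbp6 and Igfbp7. All 10 were found among the 24421 entries of the deposited count table, which covers 16 polyA RNA libraries of ventricular tissue from C57BL/6N mice, all labelled male. The mice were wildtype (WT) or homozygous for JP2CR, a knock-in allele of Jph2 without residues 563 to 568 of junctophilin-2, the protein that ties the cell surface to the sarcoplasmic reticulum in heart muscle cells. The allele was made so that the protease calpain cannot cut the protein there. Mice aged 9 to 10 weeks had sham surgery or the operation labelled TAC, a banding of the aorta that puts the left side of the heart under pressure overload, and tissue was taken 5 weeks later. There were 4 libraries in each of the groups WT sham, WT TAC, JP2CR sham and JP2CR TAC. The WT mice were littermates of the JP2CR mice. The design asks how pressure overload changes the ventricle's transcripts and whether the allele alters that change.

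IGF1 and IGF2 are secreted peptides that act on growth and survival of cells through the IGF1 receptor, a tyrosine kinase that signals through insulin receptor substrates, PI3 kinase and AKT. The IGF2 receptor does not signal in that way: it takes up IGF2 for breakdown in lysosomes and carries enzymes tagged with mannose 6-phosphate. IGF binding proteins hold the ligands outside cells and either keep them from the receptor or deliver them to it, and proteases that cut the binding proteins set the ligands free. In the heart, IGF1 signalling is known for its part in growth of muscle cells, and Igf2 is an imprinted gene with its main role before birth.

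The sequence before the start site is shown for the ligand genes and for the binding proteins that changed most under TAC, because these genes moved together or in opposite directions. All are from RefSeq on GRCm38.p6, the build also known as mm10, written 5′ to 3′ on the gene's own strand. For Igfbp7, Igfbp3 and Igf2 they are the 100 bases before a start, at chr5:77408046-77408145, chr11:7213924-7214023 and chr7:142657497-142657596, all on the minus strand. For Igf1 they are 27 bases at chr10:87861064-87861090 on the plus strand, a stretch that lies within exons of longer annotated Igf1 transcripts. Capitals mark the GC box GGGCGG, read on either strand, and in Igf1 an AP-1 site TGANTCA.
Igfbp7: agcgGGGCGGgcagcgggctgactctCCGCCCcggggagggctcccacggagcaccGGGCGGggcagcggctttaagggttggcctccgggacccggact
Igfbp3: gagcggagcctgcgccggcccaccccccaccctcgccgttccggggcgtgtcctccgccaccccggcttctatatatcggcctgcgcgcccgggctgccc
Igf2: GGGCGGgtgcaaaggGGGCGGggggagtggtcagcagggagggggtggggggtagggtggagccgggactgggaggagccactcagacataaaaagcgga
Igf1: agctggaactTGAATCActattctgga

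Igfbp7 held GC boxes beginning at -96, -74 and -44 from the start in these bases, and a further one at -110 before them. The Igf2 stretch, from 1 of 4 start windows that RefSeq gives for the gene, held GC boxes at -100 and -85. The GC box occurred in 32.7% of 32817 windows searched over the 250 bases before a start. The AP-1 site of Igf1 began at -37, and this site occurred in 6.75% of the windows. Igfbp3 held none of 6 motifs searched on both strands: the TATA box TATAAA (12.4% of windows), the GC box, CCAAT (33.8%), the AP-1 site, the TEAD site GGAATG (12.6%) and the GATA site AGATAA (9.99%). The GC box of Igfbp7 and Igf2 is thus common in other genes, and no motif was in all 4 genes called higher under TAC. Igfbp7 and Igf1r (at -43 and -26) both held GC boxes, Igf1 held an AP-1 site and a CCAAT box at -142, and Igfbp3 held none. These matches are letters in a window and were not tested for binding.

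Library totals ran from 9966782 to 16609732 counts. Levels are given as CPM, the read count relative to the library total after TMM scaling, and 3 counts were worth 0.185 to 0.314 CPM. Between the genotypes and between surgeries the targeted gene Jph2 did not pass the test, and its transcript count does not read the deletion of 6 residues. In 13 libraries Xist, the RNA of the inactive X chromosome, had at most 0.266 CPM. It reached 189 CPM in the third and 196 CPM in the fourth JP2CR sham library, where Ddx3y, Uty, Kdm5d and Eif2s3y, genes of the Y chromosome, had 0 counts. The fourth JP2CR TAC library held both, with Xist at 141 CPM and the Y genes at 118 CPM. These 3 libraries go against their label. Replicate 3 was intermediate between replicates 1 and 2 for 91.9% of differing genes in the WT TAC group and 91.7% in the JP2CR TAC group, beside 84.0% in WT sham and 27.8% in JP2CR sham. For replicate 4 the shares were 75.5%, 65.0%, 77.6% and 32.7% in the same order. The differing genes numbered 3376, 3081, 2041 and 352. The 5 libraries set apart below are 3 with Xist and 2 intermediate ones of TAC, and WT sham 3, at 84.0%, was kept. Where leaving them out changed a call of an IGF system gene, results are given with and without them. Values of genes from other lists are of all libraries unless stated. Defining markers of ventricular muscle cells were present in every group (10 markers summing to at least 69176 CPM).

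Per kb of exon, Igfbp7 was the most abundant of the 10 transcripts in all 4 groups. Comparing genes needs a length scale, so CPM were divided by the length of the gene's merged exons in kb. Per kb in WT sham, Igfbp7 stood at 108 ± 4.80 CPM (SD, n = 4), followed by Igfbp5 at 54.2 ± 4.50, Igf2r at 36.2 ± 0.58, Igfbp4 at 27.2 ± 1.56 and Igfbp6 at 24.3 ± 4.26. Igfbp3 at 10.5 ± 0.46 and Igf2 at 8.08 ± 0.45 came next, then Igf1r at 2.39 ± 0.11 and Igf1 at 2.08 ± 0.17, and Igfbp2 at 0.0853 ± 0.0689 was last. Neighbours in this order did not overlap between libraries, except Igfbp4 with Igfbp6 and Igf1r with Igf1. The mannose 6-phosphate receptor and the binding proteins other than Igfbp2 thus stood above both ligands and Igf1r in mean CPM per kb. This order depends on the length used, which merges the exons of all annotated transcripts (16.8 kb for Igf1r). In WT sham CPM without it, Igfbp3 at 32.7 and Igfbp6 at 27.0 lay below Igf2 at 46.2 and Igf1r at 40.1. Igfbp7 at 131 then lay below Igf2r at 337 and Igfbp5 at 326.

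Igfbp7, Igfbp5 and Igf2r came first and Igfbp2 last by mean in all groups, though Igfbp5 and Igf2r overlapped in both JP2CR groups. Igf2 was the seventh in each group, and Igf1 and Igf1r exchanged places. In WT TAC, Igf1 at 3.54 ± 0.28 CPM per kb lay above Igf1r at 2.95 ± 0.25, with overlapping libraries. In JP2CR TAC, Igf2 at 4.00 ± 0.66 and Igf1 at 3.61 ± 0.51 overlapped. Among the JP2CR sham libraries, Igf2 at 9.89 ± 2.53 overlapped with Igfbp3 at 11.4 ± 1.29, and Igf1r at 2.60 ± 0.09 lay above Igf1 at 1.86 ± 0.29 without overlap.

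**Figure D1:**
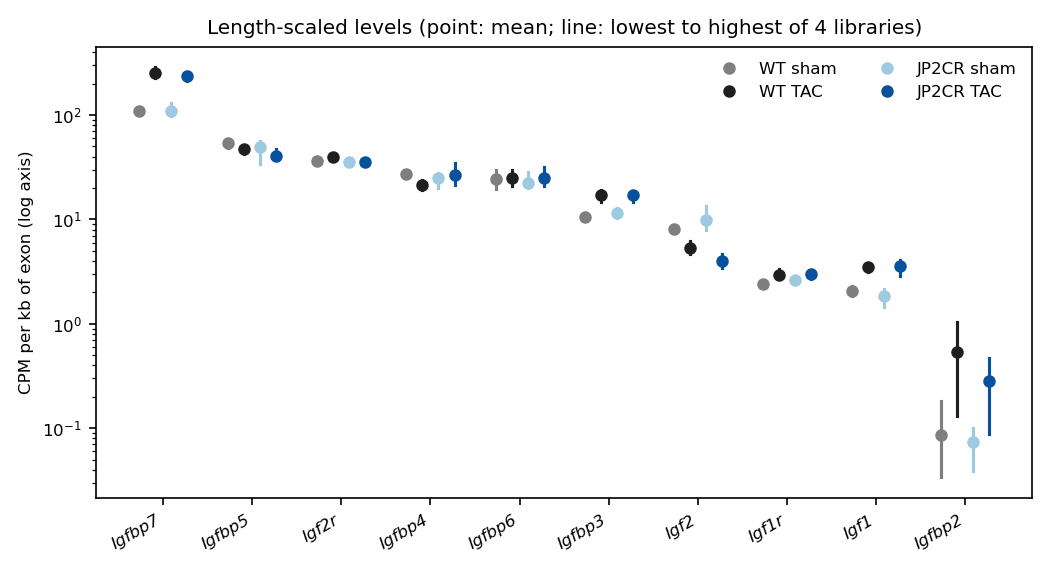
Mean CPM per kb of merged exon (log axis) of the 10 IGF system genes in the 4 groups; points are means of 4 libraries and lines run from the lowest to the highest library. Igfbp7 stands highest in every group, at 108 in WT sham and 254 in WT TAC, and Igfbp2 lowest.

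TAC changed 6 of the 9 genes tested in WT and 5 of 9 in JP2CR. Genes were called at a Benjamini-Hochberg adjusted p under 0.05 over 13522 genes by edgeR's quasi-likelihood test. Of all genes tested, 41.9% were called in WT (21.1% higher, 20.8% lower) and 41.5% in JP2CR (20.7% higher, 20.7% lower), so a call is common in this surgery and a count of 9 genes says little beside it. In WT, Igf1, Igf1r, Igfbp3 and Igfbp7 rose and Igf2 and Igfbp4 fell. In JP2CR the same 4 genes rose, and Igf2 fell. The median log2 fold change of the 9 genes was 0.13 in each genotype, beside -0.00 over all genes. Each of the 9 had at least 137 counts in every library. Igfbp2, with 1 to 25 counts, did not pass the filter on low counts and was not tested. In WT, 7 of the 9 had TAC and sham libraries that did not overlap, beside 42.0% of all genes, and in JP2CR 4 of 9 beside 34.1%.

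**Figure D2:**
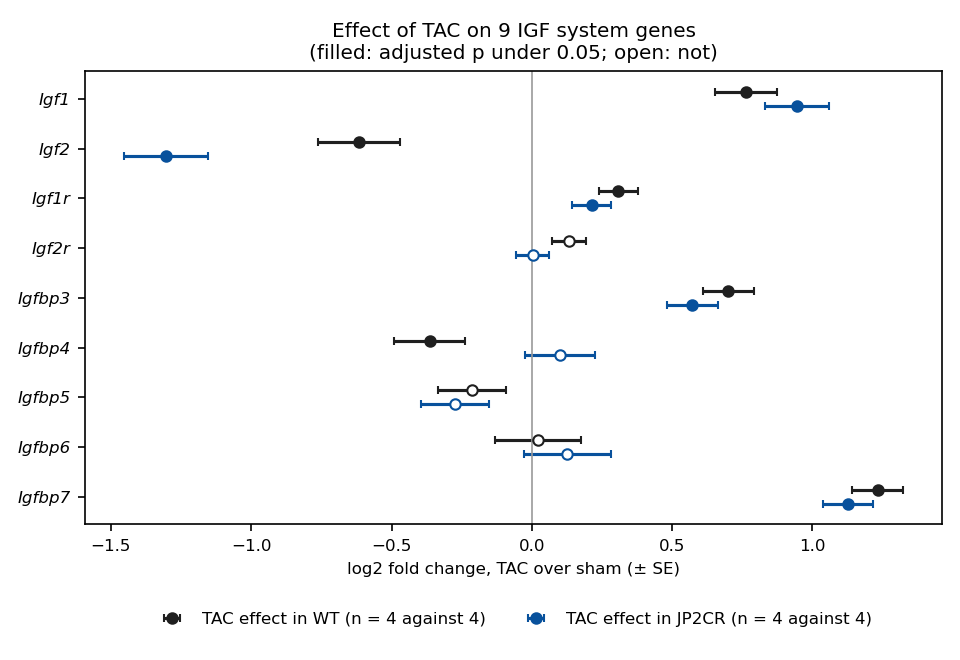
Log2 fold change of TAC over sham (± SE) for 9 IGF system genes in WT and JP2CR, 4 libraries against 4; filled points have an adjusted p under 0.05. Igfbp7 lies farthest to the right, at 1.23 in WT and 1.13 in JP2CR, and Igf2 farthest to the left, at -0.62 and -1.30.

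Igf1, the ligand with the higher affinity for the IGF1 receptor, rose in both genotypes. WT sham libraries 1 to 4 had 18.5, 22.6, 21.0 and 20.2 CPM, and WT TAC libraries 1 to 4 had 31.1, 36.3, 37.3 and 35.5 CPM. In JP2CR it was 21.1, 19.3, 18.9 and 14.3 CPM in sham and 36.7, 40.6, 37.2 and 28.6 CPM in TAC. Every TAC library lay above every sham library of either genotype, and the lowest library of each JP2CR group was the fourth, which in both groups carried Xist. The log2 fold change was 0.76 ± 0.11 (SE; adjusted p = 3.08e-05) in WT, a 1.70-fold rise, and 0.94 ± 0.11 (adjusted p = 5.08e-06) in JP2CR, a 1.92-fold rise. The difference of the TAC effects between genotypes was 0.18 ± 0.16 on the log2 scale (adjusted p = 0.758), with an approximate 95% interval from -0.13 to 0.49. In tissue, a change in the number of cells of a type and a change in RNA per cell cannot be told apart.

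Igf2 fell under TAC in both genotypes. The gene lies on chromosome 7 from 142650766 to 142666816 on the minus strand. WT sham libraries had 49.1, 43.0, 45.5 and 47.3 CPM, and WT TAC libraries had 35.7, 26.5, 30.5 and 28.0 CPM. JP2CR sham libraries had 58.9, 76.1, 45.1 and 46.2 CPM, and JP2CR TAC libraries had 26.4, 19.4, 25.9 and 19.9 CPM. Sham and TAC did not overlap in either genotype, and the widest spread was in JP2CR sham, where the 2 lower libraries were those with Xist. The log2 fold change was -0.62 ± 0.15 (adjusted p = 0.00251) in WT, to 0.653 of the sham level, and -1.30 ± 0.15 (adjusted p = 3.16e-06) in JP2CR, to 0.405 of it.

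The fall of Igf2 was larger in JP2CR by 0.69 ± 0.21 on the log2 scale, which did not pass the test of the difference over all genes (adjusted p = 0.200). Its approximate 95% interval ran from -1.10 to -0.28. Without the 3 libraries with Xist the difference was -0.87 ± 0.17 and was called (adjusted p = 0.0122), in a fit that called 213 genes higher and 159 lower of 13740, beside 12 and 4 with all libraries. Without the 2 intermediate TAC libraries it was -0.75 ± 0.24 (adjusted p = 0.402), and without all 5 it was -0.93 ± 0.20 (adjusted p = 0.0640). Leaving out any one library gave differences between -0.78 and -0.52, none of them called (adjusted p between 0.0693 and 0.337). The fit without the libraries with Xist also called the difference for adipocyte markers, such as Adipoq (7.28 ± 1.46) and Plin1 (8.33 ± 1.53). It called it for atrial markers, such as Sln (2.66 ± 0.60) and Dkk3 (1.30 ± 0.30), and for the ventricular marker Irx4 (-0.68 ± 0.12). The part of such tissue in the Igf2 value was not tested.

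In all 4 groups the deposited Igf2 counts may include reads of neighbours. Gm49394, annotated on the same strand, shares 3596 exon bases with Igf2 and is not among the entries analysed here, and Igf2os, on the opposite strand, shares 98 and had 54 counts over the 16 libraries. How the counting treated strand and overlaps is not given in the sources used here.

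Fewer Igf2 counts stood beside each Igf1 count after TAC than after sham. There were 2.27 ± 0.316 Igf2 counts per Igf1 count in WT sham (SD, n = 4) and 0.872 ± 0.189 in WT TAC, with ranges of 1.90 to 2.66 and 0.731 to 1.15. In JP2CR the ratio was 3.09 ± 0.668 in sham and 0.647 ± 0.113 in TAC, with ranges of 2.38 to 3.94 and 0.479 to 0.720. All 8 sham libraries had more Igf2 than Igf1 counts, and of the TAC libraries this held for WT TAC 1 alone. Per kb of exon, the mean ratio of Igf2 to Igf1 in WT was 3.92 ± 0.548 for sham and 1.51 ± 0.326 for TAC, and in JP2CR 5.34 ± 1.16 for sham and 1.12 ± 0.195 for TAC. On that scale JP2CR TAC 2 was the only library of the 16 with more Igf1 than Igf2.

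**Figure D3:**
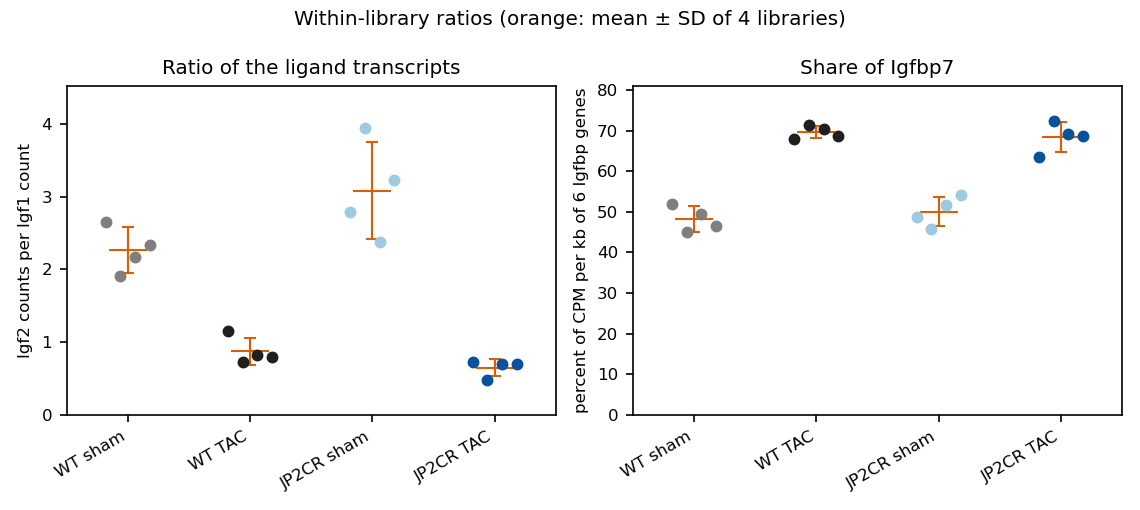
Left, Igf2 counts per Igf1 count; right, the percentage of the summed CPM per kb of 6 Igfbp genes that was Igfbp7; points are libraries and orange marks are the mean ± SD of 4. The ligand ratio is 1.90 or more in all sham libraries and 1.15 or less in all TAC libraries, and the Igfbp7 share is at most 54.1% in sham and at least 63.5% in TAC.

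Igf1r, the tyrosine kinase receptor, rose modestly. WT sham had 42.5, 40.5, 38.1 and 39.1 CPM and WT TAC 47.3, 55.7, 46.7 and 48.4 CPM, with no overlap, a log2 fold change of 0.31 ± 0.07 (adjusted p = 0.00160). JP2CR sham had 45.8, 42.8, 42.4 and 43.4 CPM and JP2CR TAC 44.8, 55.3, 50.9 and 51.4 CPM. Here the groups overlapped, since JP2CR TAC 1 lay below JP2CR sham 1, and the log2 fold change was 0.21 ± 0.07 (adjusted p = 0.0196). That call was lost without JP2CR TAC 2 (0.17 ± 0.07, adjusted p = 0.0779), without the 3 libraries with Xist (0.18 ± 0.09, adjusted p = 0.145) and without all 5 (0.17 ± 0.11, adjusted p = 0.260). The difference between genotypes was -0.09 ± 0.10 (adjusted p = 0.802; interval -0.29 to 0.10).

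Igf2r, which clears IGF2 and sorts lysosomal enzymes, differed little. WT sham had 338, 331, 336 and 344 CPM and WT TAC 346, 381, 374 and 378 CPM. The groups were adjacent without overlap, and the log2 fold change of 0.13 ± 0.06 was not called (adjusted p = 0.0848). It was called with only the 2 WT groups in the fit (0.14 ± 0.04, adjusted p = 0.0171) and without WT TAC 1 (0.16 ± 0.06, adjusted p = 0.0478). In JP2CR the sham libraries had 341, 307, 301 and 361 CPM and the TAC libraries 303, 354, 322 and 334 CPM, which overlapped fully, with a log2 fold change of 0.00 ± 0.06 (adjusted p = 0.976; interval -0.11 to 0.12).

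Igfbp7, a secreted protein that binds IGFs weakly and is found in vessel walls and matrix, had the largest rise of the 9 genes. Its gene lies on chromosome 5 from 77349240 to 77408041 on the minus strand. WT sham libraries had 137, 126, 134 and 126 CPM and WT TAC libraries 291, 345, 319 and 275 CPM. JP2CR sham libraries had 125, 117, 159 and 122 CPM and JP2CR TAC libraries 278, 310, 299 and 259 CPM. All TAC libraries lay above all sham libraries by a wide gap, and JP2CR sham 3, with Xist, was the highest of the sham libraries. The log2 fold change was 1.23 ± 0.09 (adjusted p = 1.84e-08) in WT, a 2.35-fold rise, and 1.13 ± 0.09 (adjusted p = 9.41e-08) in JP2CR, a 2.18-fold rise. The difference was -0.11 ± 0.13 (adjusted p = 0.844; interval -0.35 to 0.14). An 85-base stretch of exon is shared with Polr2b on the opposite strand, a gene with 14502 counts over the 16 libraries.

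Igfbp3, the main carrier of IGFs in blood, rose as well. WT sham had 34.7, 31.6, 32.8 and 31.7 CPM and WT TAC 60.0, 46.2, 49.7 and 56.8 CPM. JP2CR sham had 32.9, 40.5, 32.1 and 37.9 CPM and JP2CR TAC 56.1, 56.1, 54.1 and 46.1 CPM. No sham library reached a TAC library in either genotype. The log2 fold change was 0.70 ± 0.09 (adjusted p = 9.76e-06) in WT and 0.57 ± 0.09 (adjusted p = 9.28e-05) in JP2CR, with a difference of -0.13 ± 0.13 (adjusted p = 0.795; interval -0.38 to 0.13).

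Igfbp4, a binding protein that holds IGFs until the protease PAPP-A cuts it, fell in WT. WT sham had 113, 125, 115 and 126 CPM and WT TAC 106, 85.5, 96.5 and 85.1 CPM, with no overlap. The log2 fold change was -0.36 ± 0.13 (adjusted p = 0.0278). The call was lost without WT sham 2, WT sham 4, WT TAC 2 or WT TAC 4 (adjusted p between 0.0663 and 0.0787) and without the 2 intermediate TAC libraries (adjusted p = 0.0562). In JP2CR the sham libraries had 117, 115, 123 and 88.5 CPM and the TAC libraries 155, 94.3, 121 and 105 CPM, overlapping widely, with a log2 fold change of 0.10 ± 0.13 (adjusted p = 0.559). The difference of the TAC effects was 0.46 ± 0.18 (adjusted p = 0.350; interval 0.11 to 0.81) and was not called, so the WT call and the missing JP2CR call are not shown to differ. JP2CR sham 4, the shallowest library and one with Xist, was the lowest, and JP2CR TAC 1 the highest.

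Igfbp5, the second most abundant of the binding proteins per kb of exon, was called in neither genotype. WT sham had 289, 354, 326 and 334 CPM and WT TAC 287, 301, 283 and 253 CPM, overlapping, with a log2 fold change of -0.21 ± 0.12 (adjusted p = 0.173). JP2CR sham had 307, 330, 336 and 203 CPM and JP2CR TAC 282, 225, 244 and 222 CPM, with a log2 fold change of -0.27 ± 0.12 (adjusted p = 0.0799). JP2CR sham 4 lay below all the TAC libraries of its genotype. That library also had the lowest sum of 10 atrial markers of its group, 1175 CPM beside 3734 to 8486 CPM in the others, and the part of this in its values was not tested. Without it the JP2CR value was -0.41 ± 0.08 (adjusted p = 0.00107) and the WT value -0.22 ± 0.08 (adjusted p = 0.0333). JP2CR was also called without JP2CR TAC 1 (-0.35 ± 0.13, adjusted p = 0.0365), without the 3 libraries with Xist (-0.34 ± 0.09, adjusted p = 0.00887) and without all 5 (-0.33 ± 0.11, adjusted p = 0.0454). WT was called without those 3 (adjusted p = 0.0230) and with only the WT groups in the fit (adjusted p = 0.0200).

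Igfbp6, which prefers IGF2 over IGF1, ranged in WT from 21.8 to 33.0 CPM after sham and 23.2 to 33.0 CPM after TAC, and in JP2CR from 22.3 to 31.6 CPM and 23.5 to 35.6 CPM. All groups overlapped. The log2 fold change was 0.02 ± 0.15 (adjusted p = 0.921; interval -0.28 to 0.32) in WT and 0.13 ± 0.15 (adjusted p = 0.549; interval -0.18 to 0.43) in JP2CR. JP2CR TAC 1 was the highest library of its group for Igfbp4, Igfbp5 and Igfbp6 alike.

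Igfbp2, a binding protein of fetal and metabolic tissues, was near the limit of detection. WT sham libraries had 4, 1, 2 and 1 counts and WT TAC libraries 25, 4, 18 and 3. JP2CR sham libraries had 1, 2, 3 and 1 counts and JP2CR TAC libraries 6, 2, 8 and 13. The higher WT TAC counts came from libraries 1 and 3, at 1.94 and 1.51 CPM, while libraries 2 and 4 had 0.266 and 0.241 CPM. Markers of mesothelium and epicardium, the cells covering the heart, summed to 82.0 and 57.6 CPM in WT TAC 1 and 3 and to 25.7 and 31.8 CPM in WT TAC 2 and 4. Their sums ran from 72.1 to 80.5 CPM for WT sham, 61.5 to 78.6 CPM for JP2CR sham and 60.2 to 73.3 CPM for JP2CR TAC, with none of the 7 markers at 0, and their part in the Igfbp2 counts was not tested. The filter on low counts dropped the gene in each fit that left out WT TAC 1, WT TAC 3 or JP2CR TAC 4 alone, the libraries with the most counts. With all libraries and no filter the log2 fold change was 2.65 ± 0.71 (adjusted p = 0.00672) in WT and 1.90 ± 0.79 (adjusted p = 0.0792) in JP2CR. With sham counts this low, the size of these values depends on the prior count.

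**Figure D4:**
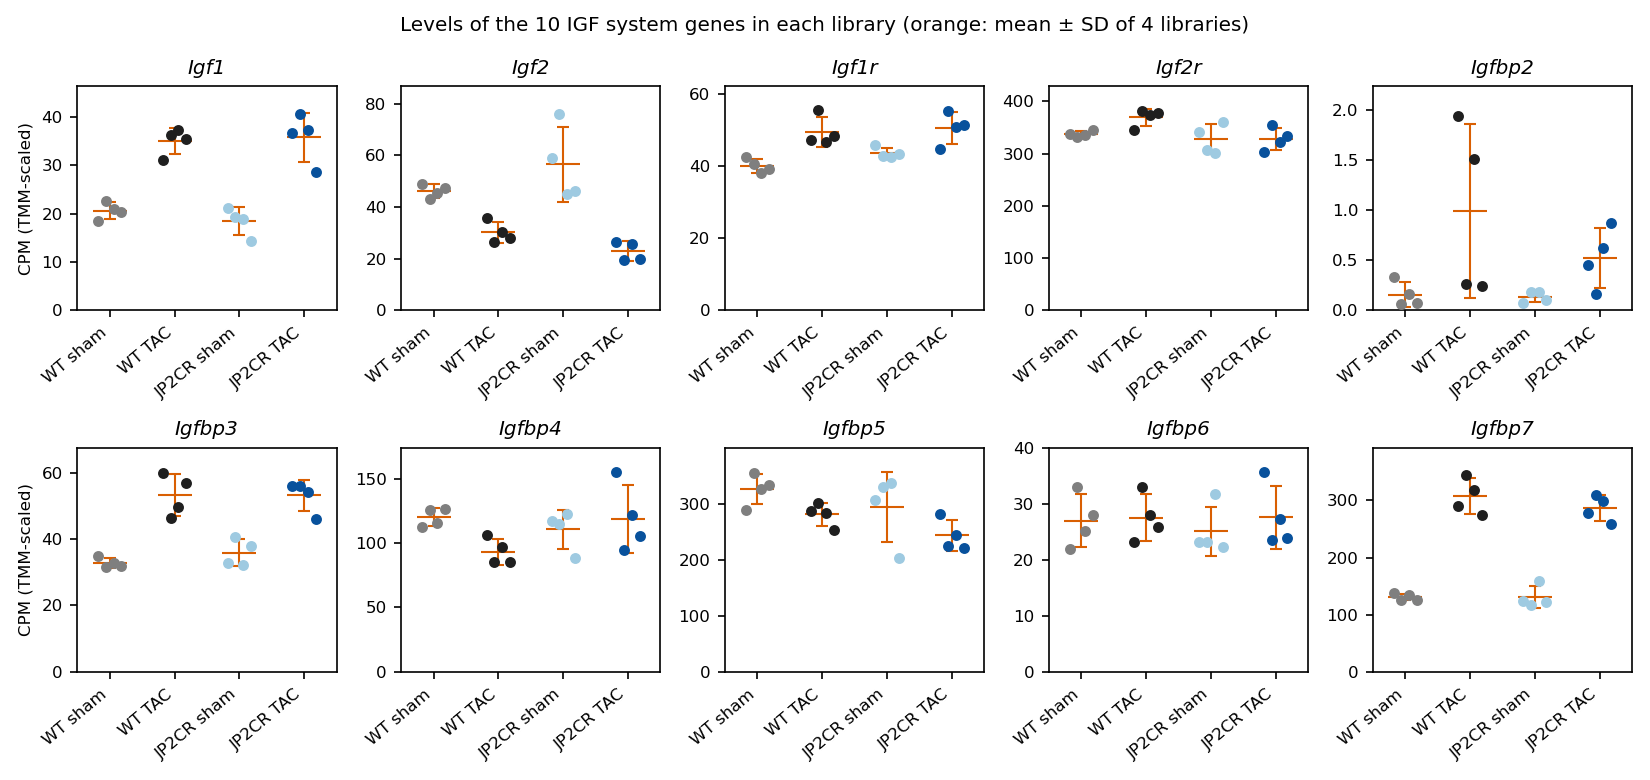
CPM of each of the 10 genes in the 16 libraries by group; points are libraries and orange marks are the mean ± SD of 4. For Igf1, Igfbp3 and Igfbp7 the TAC libraries lie above the sham libraries in both genotypes, for Igf2 below, and Igfbp2 stays at or under 1.94 CPM.

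Per kb of exon, the summed level of the 6 binding proteins was higher in every TAC library than in every sham library. So was the share of it that was Igfbp7. Both values depend on the length scale, since Igfbp7 has 1.21 kb of exon and Igfbp5 6.01 kb. In CPM without that scale, the sums of sham and TAC libraries overlapped. Igfbp7 itself went from 108 to 254 CPM per kb in WT and from 108 to 237 in JP2CR. Of the other binding proteins tested, only Igfbp3 was called higher. The sum in WT was 224 ± 5.29 CPM per kb after sham and 364 ± 29.7 after TAC, and 216 ± 27.8 and 346 ± 23.6 in JP2CR. In WT, Igfbp7 made up 48.3% ± 3.12 of it after sham and 69.7% ± 1.53 after TAC, and in JP2CR 50.1% ± 3.61 and 68.4% ± 3.67. The WT share of Igfbp5 was 24.1% ± 1.48 after sham and 12.9% ± 0.460 after TAC, and that of Igfbp4 12.1% ± 0.538 and 5.83% ± 0.796. In JP2CR, Igfbp5 went from 22.5% ± 3.38 to 11.7% ± 0.999 and Igfbp4 from 11.6% ± 0.907 to 7.76% ± 1.49. Igfbp3 made up 4.66% ± 0.308 of the WT sum after sham and 4.71% ± 0.890 after TAC. Shares add up to the whole, so a lower share does not show a lower level.

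No IGF system gene was called between the genotypes by edgeR. In sham, 0 of 9 were called and 0 had an unadjusted p under 0.05, beside 0.0961% of all genes called. In TAC, 0 of 9 were called beside 0.651% of all genes, and 3 had an unadjusted p under 0.05. Igf2 was lower in JP2CR TAC than in WT TAC without overlap (-0.40 ± 0.15, adjusted p = 0.265), Igf2r was -0.17 ± 0.06 (adjusted p = 0.211) and Igfbp4 0.35 ± 0.13 (adjusted p = 0.231). Groups without overlap made up 8.09% of all genes in TAC and 4.76% in sham, where none of the 9 was among them. In the difference of the TAC effects 0 of 9 were called beside 0.118% of all genes (0.0887% higher, 0.0296% lower), with 2 under an unadjusted p of 0.05, Igf2 and Igfbp4. DESeq2 and limma voom also called 0 of 9 in these 3 comparisons. The comparisons share their groups: the JP2CR sham values of Igf2 enter both the larger JP2CR fall and the genotype value in sham, which was 0.29 ± 0.14 (adjusted p = 0.641) and 0.54 ± 0.12 (adjusted p = 0.0557) without the libraries with Xist.

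Genes that govern IGF availability changed in both directions. Of 13 listed proteases, inhibitors and carriers, 11 were tested; 6 rose and 4 fell in WT, and 5 rose and 3 fell in JP2CR (median log2 fold change 0.45 and 0.34, beside -0.00 and -0.00 over all genes). Over all genes tested 41.9% were called in WT and 41.5% in JP2CR, near 21.1% and 20.7% in each direction, and the list counts here and below are to be read beside these shares. Without the 3 libraries with Xist, and also without all 5, 4 rose and 1 fell in JP2CR. Htra1, a serine protease that cuts IGF binding proteins, fell from 99.6 to 53.8 CPM in WT (-0.89 ± 0.11, adjusted p = 6.73e-06) and from 102 to 59.2 CPM in JP2CR (-0.79 ± 0.11, adjusted p = 3.10e-05). Adam12, a metalloprotease able to cut Igfbp3 and Igfbp5, rose from 1.49 to 3.10 CPM in WT (adjusted p = 0.00434) and from 1.27 to 3.64 CPM in JP2CR (adjusted p = 0.000296). Adam9, a related enzyme, rose by 0.48 ± 0.05 and 0.37 ± 0.05, and the lysosomal protease Ctsd by 0.45 ± 0.06 and 0.34 ± 0.06. Igfals, the subunit that stabilises the complex of IGF and Igfbp3 in blood, rose in WT (0.90 ± 0.17, adjusted p = 0.000363). In JP2CR its value was 0.23 ± 0.17 (adjusted p = 0.281), and the difference was not called (-0.66 ± 0.24, adjusted p = 0.299).

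Downstream of the receptors, 30 of 31 listed signalling genes were tested; 15 rose and 6 fell in WT, and 13 rose and 7 fell in JP2CR (41.9% and 41.5% of all genes called), where 12 rose and 4 fell without the libraries with Xist and 10 rose and 3 fell without all 5. Insr, the insulin receptor, rose from 176 to 284 CPM in WT (0.69 ± 0.09, adjusted p = 5.93e-06) and from 190 to 265 CPM in JP2CR (0.49 ± 0.09, adjusted p = 0.000256). Grb10 and Grb14 encode related adaptors that bind the insulin and IGF1 receptors and damp their signal, and they moved in opposite directions. Grb10 rose by 0.68 ± 0.05 in WT and 0.46 ± 0.05 in JP2CR, and Grb14 fell by 0.78 ± 0.07 and 0.53 ± 0.07 on the log2 scale. Pdpk1, the kinase that activates AKT, rose by 0.68 ± 0.09 and 0.66 ± 0.09, and Grb2, an adaptor toward RAS, fell by 0.41 ± 0.06 and 0.30 ± 0.06.

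Of the 30 signalling genes tested, 1 was called between the genotypes after TAC, Pik3r1, beside 0.651% of all genes. It lies outside the rule for named genes and was chosen after its values were seen. It encodes the p85 alpha regulatory subunit of PI3 kinase. WT TAC libraries had 153, 104, 128 and 146 CPM and JP2CR TAC libraries 241, 183, 213 and 225 CPM, without overlap (0.70 ± 0.14, adjusted p = 0.0313). WT sham libraries had 151, 134, 148 and 133 CPM. JP2CR sham had 128, 141, 182 and 214 CPM, and the 2 high values came from the libraries with Xist. The TAC effect on Pik3r1 was -0.09 ± 0.14 in WT (adjusted p = 0.625) and 0.37 ± 0.14 in JP2CR (adjusted p = 0.0390). With only the JP2CR groups in the fit, among other alternatives, the JP2CR value was not called (adjusted p = 0.0745). Of 27 alternatives, 18 kept the call between the genotypes after TAC, with values from 0.60 to 0.77. It was lost without WT sham 3, without any of WT TAC 2, 3 and 4 or JP2CR TAC 1, 3 and 4, without the 2 intermediate TAC libraries (0.69 ± 0.17, adjusted p = 0.251) and without all 5 (0.66 ± 0.14, adjusted p = 0.108). Without the 3 libraries with Xist, Pik3r1 was also called in the difference of the TAC effects (0.76 ± 0.17, adjusted p = 0.0218, beside 0.47 ± 0.20 and 0.401 with all libraries). In that fit Irs2, an insulin receptor substrate likewise chosen after its values were seen, was lower after TAC in JP2CR than in WT (-0.71 ± 0.15, adjusted p = 0.0188, beside -0.63 ± 0.27 and 0.323 with all libraries).

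Transcripts of the growth hormone axis, which drives Igf1 in the liver, changed in both directions. Of 11 listed genes 8 were tested; 4 rose and 3 fell in WT, and 3 rose and 3 fell in JP2CR (2 and 3 without the libraries with Xist). The receptor Ghr fell from 209 to 142 CPM in WT (-0.55 ± 0.07) and from 199.9 to 143 CPM in JP2CR (-0.49 ± 0.07). Stat5b fell by 0.53 ± 0.05 and 0.46 ± 0.05 and Stat5a by 0.85 ± 0.11 and 0.70 ± 0.12 on the log2 scale; both are transcription factors activated by the receptor. Socs2, a feedback inhibitor of the axis, rose by 0.52 ± 0.11 and 0.58 ± 0.11. Cish, another, rose in WT (0.66 ± 0.14) and was 0.08 ± 0.14 in JP2CR, with a difference that was not called (-0.58 ± 0.20, adjusted p = 0.265).

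**Figure D5:**
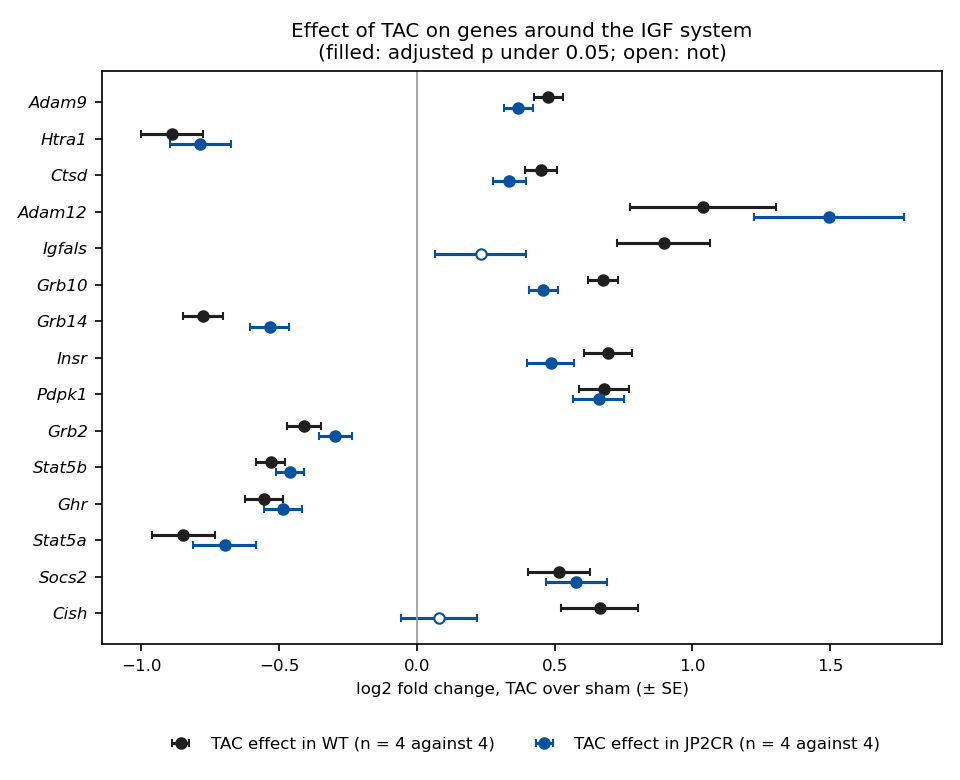
Log2 fold change of TAC over sham (± SE) in WT and JP2CR for 15 named genes of IGF availability, receptor signalling and the growth hormone axis, 4 libraries against 4; filled points have an adjusted p under 0.05. Htra1, Grb14, Grb2, Stat5a, Stat5b and Ghr lie left of 0 in both genotypes, and Igfals and Cish are filled in WT alone.

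Of 11 imprinted growth genes, 9 were tested; 1 rose and 3 fell in WT, and 3 fell in JP2CR (4 and 2 fell without the libraries with Xist), shares near the 41.9% and 41.5% of all genes called. H19, which lies beside Igf2 and shares its imprinting control region, had 41.7 CPM after sham and 32.6 CPM after TAC in WT (-0.36 ± 0.29, adjusted p = 0.347), and fell from 43.1 to 21.2 CPM in JP2CR (-1.02 ± 0.30, adjusted p = 0.0116). Cdkn1c, an inhibitor of cell division, fell by 0.97 ± 0.15 and 0.58 ± 0.15 on the log2 scale. Mest rose in WT (0.66 ± 0.15) and was 0.36 ± 0.15 in JP2CR (adjusted p = 0.0615). Of 10 genes for cargo and partners of the mannose 6-phosphate receptors, 4 rose in each genotype, with 0 falling in WT and 1 in JP2CR; without all 5 libraries 2 rose and 0 fell in JP2CR. With all libraries 4 of 10 were called in WT and 5 of 10 in JP2CR, again near the shares of all genes. The lysosomal enzymes Hexa (0.41 ± 0.06 and 0.33 ± 0.06) and Ctsl (0.27 ± 0.06 and 0.19 ± 0.06) and Gnptab, which builds the mannose 6-phosphate tag (0.36 ± 0.08 and 0.26 ± 0.08), rose in both.

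Markers of heart cell types were called as well, beside 41.9% of all genes in WT and 41.5% in JP2CR. Of 10 ventricular muscle cell markers 2 rose and 5 fell in WT and 1 rose and 7 fell in JP2CR, and their sum ran in WT from 90648 to 95631 CPM after sham and 69176 to 75249 CPM after TAC, and in JP2CR from 86176 to 109120 CPM and 70213 to 75302 CPM. Of 12 fibroblast markers 5 rose and 3 fell in WT and 5 rose and 4 fell in JP2CR, and their sum ran in WT from 3581 to 4140 CPM after sham and 3380 to 4756 CPM after TAC, and in JP2CR from 3413 to 4371 CPM and 4048 to 4305 CPM. Of 12 macrophage markers 9 and 8 rose and 0 fell, with sums of 255 to 279, 341 to 372, 264 to 318 and 361 to 429 CPM in the same order. Of 11 smooth muscle and pericyte markers 7 fell in WT and 5 in JP2CR, with 1 rising in each, and sums of 1276 to 1610, 942 to 1235, 1469 to 1543 and 1031 to 1236 CPM. Of 12 endothelial markers none was called in WT, and 1 rose and 2 fell in JP2CR, with sums of 1620 to 1683, 1480 to 1792, 1760 to 1811 and 1622 to 1759 CPM. Of 10 adipocyte markers 9 fell in WT, where Retn and Ucp1 were at 0 in all TAC libraries, and none was called in JP2CR, with sums of 435 to 690, 384 to 458, 399 to 719 and 517 to 650 CPM. Their median log2 fold change under TAC was -6.15 in WT and -0.28 in JP2CR. Between the genotypes after TAC their median was 4.43, with 1 of 10 called, beside 0.651% of all genes. Atrial markers fell in 8 of 10 cases in WT and 4 in JP2CR, with 1 rising in WT. Their sums did not fall alike, at 4991 to 6854, 5769 to 9566, 1175 to 8486 and 6143 to 7425 CPM in the same order. A sum of CPM is carried by its most abundant markers. The median log2 fold change of the 10 atrial markers was -2.63 in WT and -1.16 in JP2CR. Of 5 nerve and Schwann cell markers tested, 5 fell in WT and 4 in JP2CR. All 7 listed, tested or not, had sums of 27.9 to 35.6, 8.04 to 11.1, 22.4 to 32.8 and 11.3 to 13.9 CPM. Of 7 mesothelial markers 2 fell in WT and 1 in JP2CR, of 4 endocardial markers 1 fell in WT and 1 rose in JP2CR, and of 3 skeletal muscle markers 2 fell in WT, with 1 rising and 1 falling in JP2CR. Macrophages, fibroblasts and vessel cells express several IGF system genes, and the part of these shifts in the levels above was not tested.

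By Pearson's r of log2 CPM over the 16 libraries, among 11519 genes ranked, the genes most like Igfbp7 were Bgn (r = 0.992), Mfap5 (0.992) and Sparc (0.988), all of which encode matrix proteins. Those most like Igf1 were Itgbl1 (0.974), Ppfibp1 (0.969) and Snhg18 (0.968), and those most like Igf2 were Six5 (0.958), Tbc1d24 (0.951) and Gypc (0.937). Igfbp3 was followed by Atp6v1b2 (0.976), Stag2 (0.956) and Pdlim1 (0.956), Igf1r by Reep3 (0.917), Pls3 (0.915) and Loxl2 (0.910), and Igfbp4 by Lrch1 (0.867), Osr1 (0.845) and Slc39a8 (0.839). The 16 points share 4 groups, so these values mostly rank genes by a like response to surgery. On deviations from the group means, where that response is removed, the most alike were Ryk (0.898) for Igfbp7, Dclre1c (0.893) for Igf1, Zfp174 (0.915) for Igf2, Rlim (0.853) for Igfbp3, Ctnnd1 (0.852) for Igf1r and Cpxm1 (0.945) for Igfbp4. Of the 3 nearest genes by each measure, Igfbp3 had 1 in common, Atp6v1b2 (0.821), and the other 5 genes had none.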

How the data were processed

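PolyA RNA of 16 ventricle samples was sequenced after a stranded kit, per the labels' protocols, and the titles gave group and replicate number. No label names the animal behind a library; the tests measure the spread of these libraries, which may be technical in part. The authors deposited whole-number read counts per gene symbol, not normalized, and in the same table their log2 values and p-values for TAC against sham, of which a few log2 values are printed as theirs. A further pair of columns on the sham genotypes, in part text, was not used. Per the submitters' processing notes the build was mm10 and the tools included DESeq2 1.6.3, Cufflinks 2.2.1 and STAR 2.5.0b, with no role given; which counter, annotation and strand rule made the table is not stated there. Of 24421 entries, 27 had symbols turned into dates and 5817 had 0 counts throughout, and no 2 libraries were identical.

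The test was edgeR 4.0.16 under R 4.3.3 (filterByExpr, TMM, a mean per group over all 16 libraries, quasi-likelihood F test; SE as the log2 fold change over the square root of F). Alternatives were DESeq2 1.42.0 and its size factors, upper-quartile factors, limma 3.58.1 voom, other filters, only the groups compared, the replicate block, and leaving out libraries. The script was tested on simulated data. Exon lengths and positions came from GENCODE M21 on GRCm38. The members and lists were chosen with earlier results of these data known. Other genes named were up to 5 per list with the smallest p among those called, and the 3 most like each called member among genes whose log2 CPM averaged 1 or more. Totals of 9966782 to 16609732 counts gave each member but Igfbp2 at least 137 counts a library.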

Additional observations from a re-analysis of the deposited data

Results flagged for a closer look

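Of 40 groups of 4 libraries looked at, 1 held a library far from the others. Igfbp6 in JP2CR sham 3 was at 31.6 CPM, beside 22.3 to 23.2 CPM in the other libraries of that group, a gap of 0.904 of the group's range, past Dixon's limit for 4 values. Chance flags about 1 in 20 groups. JP2CR sham 3 is a library with Xist and the deepest of the 16, at 16609732 counts, and their part in this value was not tested.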

How the results depend on the processing

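Of 1206 values of single genes under up to 27 alternatives, 1188 stayed on their side of the threshold, 8 lost a call, 10 gained one and 0 of the called values changed direction. Igf1, Igf2, Igfbp3 and Igfbp7 kept their TAC calls in both genotypes under every alternative run, with log2 fold changes in WT and JP2CR of 0.72 to 0.82 and 0.86 to 1.04 for Igf1, -0.71 to -0.56 and -1.55 to -1.13 for Igf2, 0.64 to 0.76 and 0.53 to 0.64 for Igfbp3, and 1.17 to 1.28 and 1.08 to 1.29 for Igfbp7. The number of genes falling in WT, 2, was 1 without WT sham 2, WT sham 4, WT TAC 2 or WT TAC 4. It was also 1 without the 2 intermediate TAC libraries, and in each of these fits the call of Igfbp4 was lost. Igfbp5 was added to the 2 without JP2CR sham 4, without the 3 libraries with Xist and with only the WT groups in the fit. The number falling in JP2CR, 1, was 1 to 2 with any one library left out, 2 without the 3 libraries with Xist and 2 without all 5, where Igfbp5 was added. The number with a more negative TAC effect in JP2CR, 0, was 1 without the 3 libraries with Xist, which was Igf2. The cause was not tested, though these fits hold fewer samples.

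Libraries with the same replicate number did not vary together: r of their deviations was over 0.1 in 3 of 24 pairs, with a range from -0.17 to 0.13, and 2 of 16 libraries were closest to one of their own number. The replicate block changed no call of the IGF system genes: 4 higher and 2 lower in WT, 4 and 1 in JP2CR, and 0 in the others. Over all genes it gave 2766 higher and 2751 lower in WT and 2770 and 2720 in JP2CR, beside 2848 and 2817, and 2800 and 2805 without it; in the difference it gave 7 and 2 beside 12 and 4, and in sham 2 and 20 beside 0 and 13. DESeq2 gave 91 and 41 in the difference, 13 and 39 in sham, and 129 and 100 in TAC between genotypes, where edgeR gave 49 and 39. Depth limits Igfbp2, where 3 counts are 0.185 to 0.314 CPM.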

Other observations

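In the authors' deposited table the log2 fold change of Igfbp2, which the count filter left untested here, was 1.05 for TAC in WT and 0.67 in JP2CR, with no adjusted p given for either. The authors' deposited table gives Igf2 -0.60 in WT and -1.19 in JP2CR. It also gives Igf2r and Igfbp5 an adjusted p under 0.05 for TAC in WT, where edgeR with all libraries called neither. Airn, an RNA transcribed across the imprinted Igf2r locus from the opposite strand, shares 0 exon bases with Igf2r and had 1794 counts over the 16 libraries.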
